A study of Mus musculus with 8 samples.

Results

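The genes described here act in 2 stages of the cell division cycle: 19 genes of S phase, when DNA is copied, and 26 genes of G2 and M, when cells prepare for and pass through mitosis. They are genes with textbook roles in the cycle, listed by name with earlier results of these data known, and all 45 were found by symbol among the 34536 symbols of the deposited count table. The study sequenced mRNA of mouse cells isolated by fluorescence-activated sorting from embryoid bodies, free-floating clumps formed by differentiating pluripotent stem cells. It compared 4 libraries of cells labelled endocardial (libraries A, C, E and G), the inner lining of the heart, with 4 of cells labelled endothelial (libraries B, D, F and H), the lining of vessels. All 8 share the embryoid body source, and the labels used here give no cell line, genotype, culture day, treatment or sort marker. No label says that the libraries came from separate cultures, so the p-values speak of the variation among these 8 samples, part of which may be technical.

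A dividing cell first licenses its replication origins by loading the Mcm2 to Mcm7 helicase, then fires them under cyclin E and cyclin A kinases, with E2F factors driving the transcription of the enzymes needed. Transcripts of mitotic genes build up later, under a complex of MuvB, B-Myb and Foxm1 that is known to bind a promoter element called the cell cycle genes homology region (CHR), and they are degraded or shut off as cells exit mitosis. In embryos, endothelial and endocardial precursors divide, and growing vessels slow their division as they mature, so these transcripts serve as a readout of how many cells in a population are in each stage. In bulk RNA, a larger share of cells in a stage and more RNA per cell cannot be told apart.

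Promoter sequence is printed for 1 S phase gene and for 3 G2/M genes, among them Cdk1, the only member called below. These are picked examples that carry motifs, and the grouping itself rests on textbook roles and not on sequence. The 200 bases before the RefSeq transcript start are shown (build GRCm38.p6, the assembly also called mm10). Capitals mark E2F sites (TTTCGCGC or TTTGGCGC), the CHR letters (TTTGAA) and CCAAT boxes (CCAAT), each on either strand, where the other strand reads TTCAAA for the CHR and ATTGG for the CCAAT box.
Mcm6, a helicase subunit (chr1:128359706-128359905, minus strand): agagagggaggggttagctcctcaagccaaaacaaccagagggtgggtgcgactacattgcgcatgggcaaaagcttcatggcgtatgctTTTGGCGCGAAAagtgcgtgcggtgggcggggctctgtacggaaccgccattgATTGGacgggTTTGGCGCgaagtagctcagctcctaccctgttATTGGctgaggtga
Cdk1, the mitotic kinase (chr10:69352913-69353112, minus strand): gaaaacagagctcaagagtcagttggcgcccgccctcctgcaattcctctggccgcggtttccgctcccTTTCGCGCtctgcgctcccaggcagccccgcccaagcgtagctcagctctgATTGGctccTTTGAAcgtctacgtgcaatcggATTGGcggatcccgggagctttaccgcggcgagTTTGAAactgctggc
Top2a, the DNA topoisomerase of mitotic chromosomes (chr11:99024190-99024389, minus strand): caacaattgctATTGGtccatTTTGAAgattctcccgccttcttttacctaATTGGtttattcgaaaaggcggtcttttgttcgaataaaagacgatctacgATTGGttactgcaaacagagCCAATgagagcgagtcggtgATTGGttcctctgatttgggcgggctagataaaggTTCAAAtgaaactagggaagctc
Ube2c, a ubiquitin enzyme of mitotic exit (chr2:164769729-164769928, plus strand): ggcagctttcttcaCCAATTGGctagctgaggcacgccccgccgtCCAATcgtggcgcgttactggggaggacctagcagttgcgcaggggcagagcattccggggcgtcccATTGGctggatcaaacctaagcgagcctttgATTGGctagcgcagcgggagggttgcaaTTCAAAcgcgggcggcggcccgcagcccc
In Mcm6 the first capital run holds overlapping E2F letters of both strands, and in Ube2c the first run holds overlapping CCAAT letters of both strands. Cdk1 carries all 3 kinds of motif, with the CHR letters at 71 and 15 bases before the start.

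The RefSeq table held a promoter window of 300 bases, 250 before and 50 after the start, for 16 of the 19 S phase and 22 of the 26 G2/M genes. The CHR letters stood in 17 of the 22 G2/M windows (77.3%), in 3 of the 16 S phase windows (18.8%), those of Mcm2, Cdc45 and Fen1, and in 20.2% of all 27025 symbols with a window. In 16 of those 17 genes at least 1 copy of the letters lay between 50 bases before the start and the end of the window. E2F sites stood in 4 of the 16 S phase windows (25%), those of Mcm3, Mcm5, Mcm6 and Mcm7, in 1 of the 22 G2/M windows, that of Cdk1, and in 0.929% of all symbols. CCAAT boxes were in 62.5% of the S phase, 81.8% of the G2/M and 41.1% of all symbols' windows. In the lists of other genes of each stage the CHR letters stood in 37 of 60 windows of other mitosis genes (61.7%) and in 5 of 42 of other replication genes (11.9%). A match of letters is a description and not a measured binding site, and a window without a match says nothing of the factor.

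**Figure D1:**
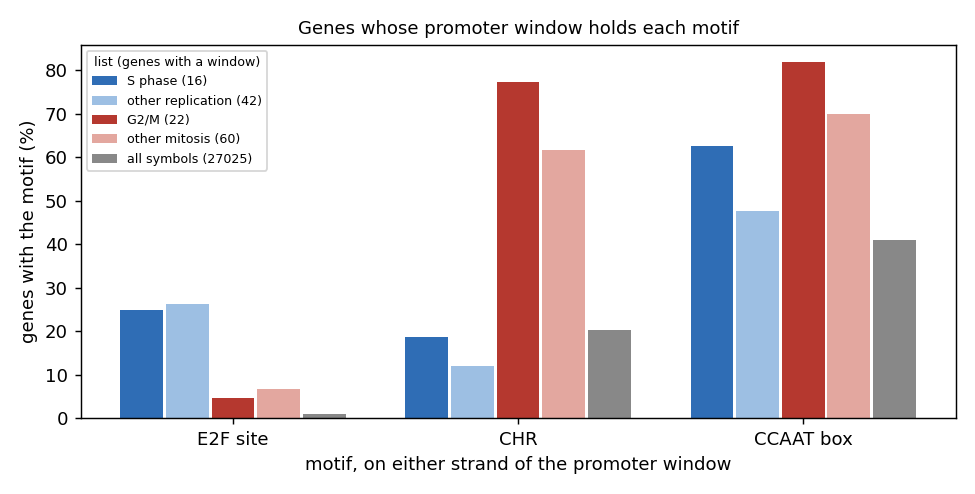
Share of genes (percent, vertical axis) whose promoter window of 300 bases holds an E2F site, the CHR letters or a CCAAT box on either strand, for the 2 member lists, 2 lists of other genes of the same stages and all 27025 symbols. The CHR bar of the G2/M genes stands at 77.3% against 20.2% for all symbols, and the E2F bar of the S phase genes at 25% against 0.929%.

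Library totals ran from 6677667 to 11369363 estimated counts, the lowest count of any member in any library was 143, and the 45 members together took 0.619% to 0.701% of the counts in the endocardial and 0.531% to 0.663% in the endothelial libraries. All 45 passed the filter on low counts. Levels are CPM, counts relative to the scaled library total. Fold changes are log2 values of endocardial over endothelial from edgeR's quasi-likelihood test, and a gene was called at a Benjamini-Hochberg adjusted p below 0.05 over all 13817 tested genes.

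The endocardial and the endothelial libraries had S phase transcripts at overlapping levels with a median fold change near 0, and 1 G2/M gene, Cdk1, was called higher in the endocardial libraries, a call lost when any 1 of the 8 libraries was left out. Of the 19 S phase genes 0 were called by edgeR, while 1 gene above 0 (Gins2) and 1 under 0 (Ung) had an unadjusted p under 0.05, and DESeq2 and limma called 0 as well, though DESeq2 called 2.21% of all genes higher and 3.73% lower and limma 2.97% and 4.09%. Of the 26 G2/M genes 1 was called higher, Cdk1, and 0 lower, while 6 genes above 0 and 0 under 0 had an unadjusted p under 0.05. Among all tested genes 1.42% were called higher and 1.16% lower, and 5.65% on the higher side and 8.99% on the lower side had an unadjusted p under 0.05. The median log2 fold change was 0.03 over the S phase genes and 0.24 over the G2/M genes, beside 0.01 over all tested genes. All 26 G2/M genes and 12 of the 19 S phase genes had a log2 fold change above 0, as did 52.5% of all tested genes. The G2/M median stayed above 0 in every alternative run, from 0.17 to 0.28, while the S phase median ran from -0.03 to 0.06 and lay below 0 with upper-quartile scaling, with limma and without library B or F. These genes vary together from library to library, so the 26 are not 26 independent observations, and the difference between the lists was not tested.

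**Figure D2:**
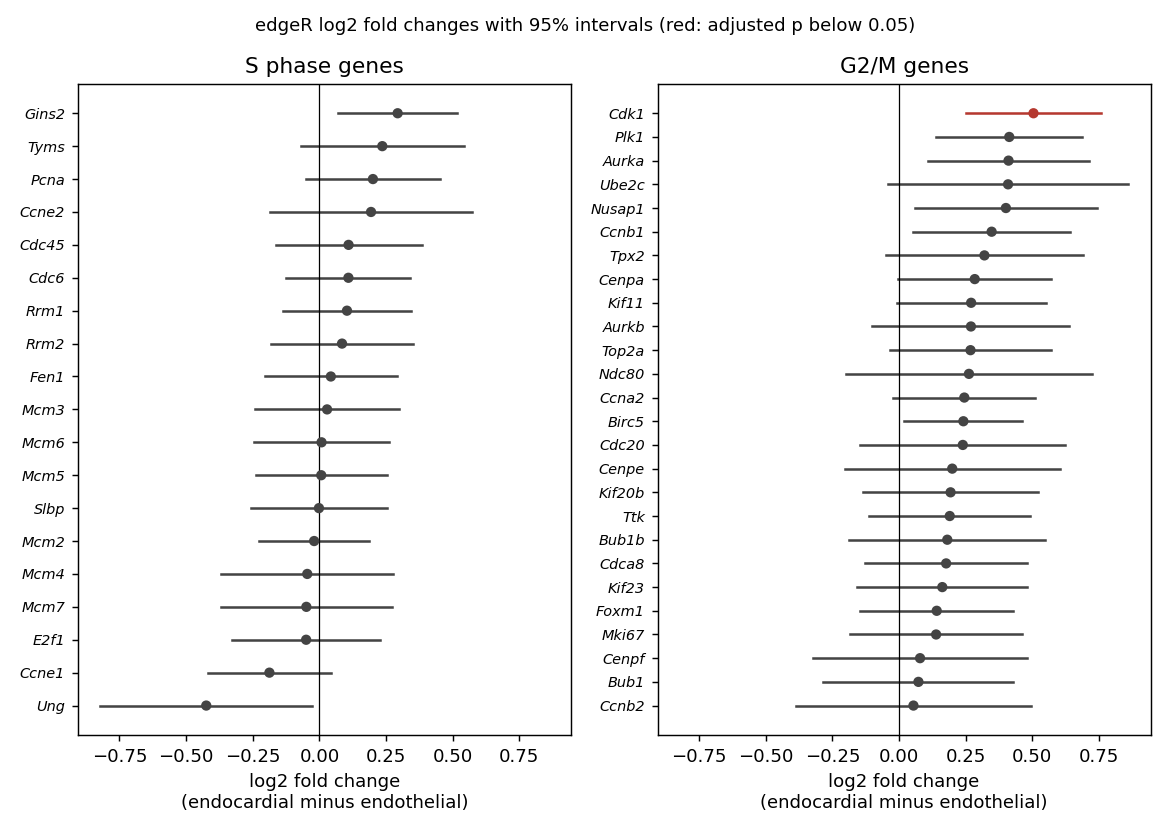
edgeR log2 fold change of each member (points, endocardial minus endothelial) with its 95% interval (lines), S phase genes on the left and G2/M genes on the right, each sorted by value. The S phase points lie on both sides of 0, from -0.42 (Ung) to 0.29 (Gins2), and all G2/M points lie above 0, from 0.05 (Ccnb2) to 0.50 (Cdk1, red, the one called).

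The mean log2 CPM over the S phase genes was 6.55, 6.54, 6.67 and 6.62 in libraries A, C, E and G, and 6.51, 6.59, 6.50 and 6.63 in B, D, F and H. The groups overlapped, with the lowest library (F) at 6.50 and the highest (E) at 6.67. The same level over the G2/M genes was 6.89, 7.14, 7.14 and 7.27 in A, C, E and G, and 6.61, 6.95, 7.0 and 6.90 in B, D, F and H. Library A, the lowest endocardial one, lay below D, F and H, so these groups overlapped too, while C, E and G lay above every endothelial library. Between neighbouring letters, a pairing that no label states, the G2/M level was higher in the endocardial library in all 4 pairs (A over B, C over D, E over F and G over H), and the S phase level in 2 of the 4 (A over B and E over F). Within a library the G2/M level exceeded the S phase level by 0.34, 0.60, 0.47 and 0.65 in A, C, E and G and by 0.10, 0.36, 0.50 and 0.27 in B, D, F and H.

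**Figure D3:**
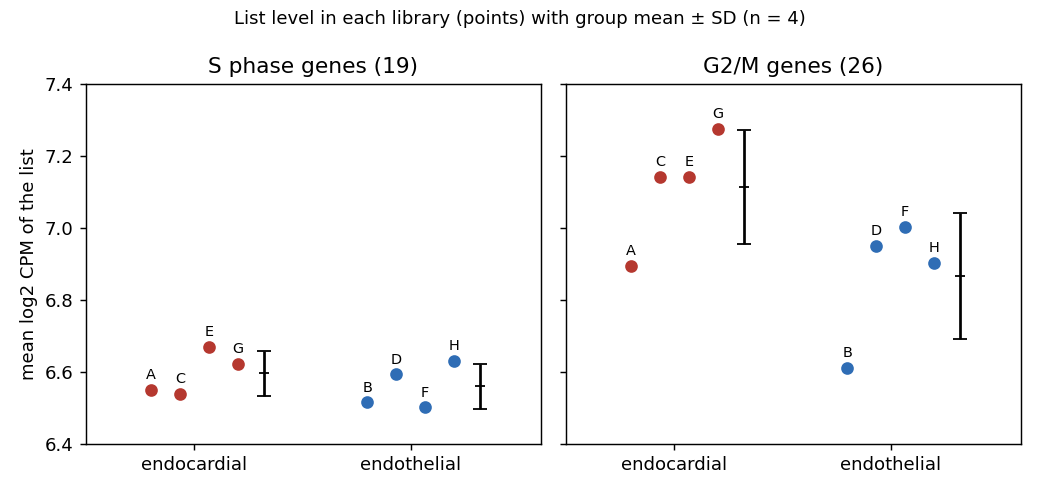
Mean log2 CPM of the 19 S phase genes (left) and the 26 G2/M genes (right) in each library (lettered points), with the mean ± SD of each group (black, n = 4); the vertical axis does not start at 0. The S phase points lie within 6.50 to 6.67 in both groups, and the G2/M points run from 6.61 (B) to 7.27 (G).

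Single libraries carried much of the G2/M spread. Library B was the lowest of the 8 for 21 of the 26 genes and below the gene's own mean for every one, and G was the highest for 14 and above the mean for every one. Without B the median log2 fold change was 0.17, with 23 genes above 0, and without G it was 0.19, also with 23 above 0. Library B also stood apart in the sum of mesenchyme and mural markers, whose 14 tested genes came to 27730 CPM there, with none at 0. The sums were 4405 to 11395 CPM in the other endothelial and 5769 to 9453 CPM in the endocardial libraries. By mean log2 CPM over the same 14 markers B was also the highest, at 7.86, with a smaller gap to the rest. That mean was 6.30 to 6.92 in the other endothelial and 6.23 to 7.09 in the endocardial libraries. Of those 14 markers 0 were called by edgeR, with 1 on either side of 0 having an unadjusted p under 0.05. Blood markers were most abundant in A and B, the lowest library of each group in G2/M level, at 2020 and 2608 CPM in sum against 652 to 968 CPM in C, E and G and 291 to 426 CPM in D, F and H, with none at 0. Of the 14 blood markers 2 were called higher in the endocardial libraries, Tal1 and Gfi1b. The part of either marker list in the G2/M levels was not tested. Among the 19 S phase genes F was the lowest library for 10 and B for 4, E was the highest for 5 and above the gene's own mean for 15, and no library lay on one side of the mean for all 19.

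**Figure D4:**
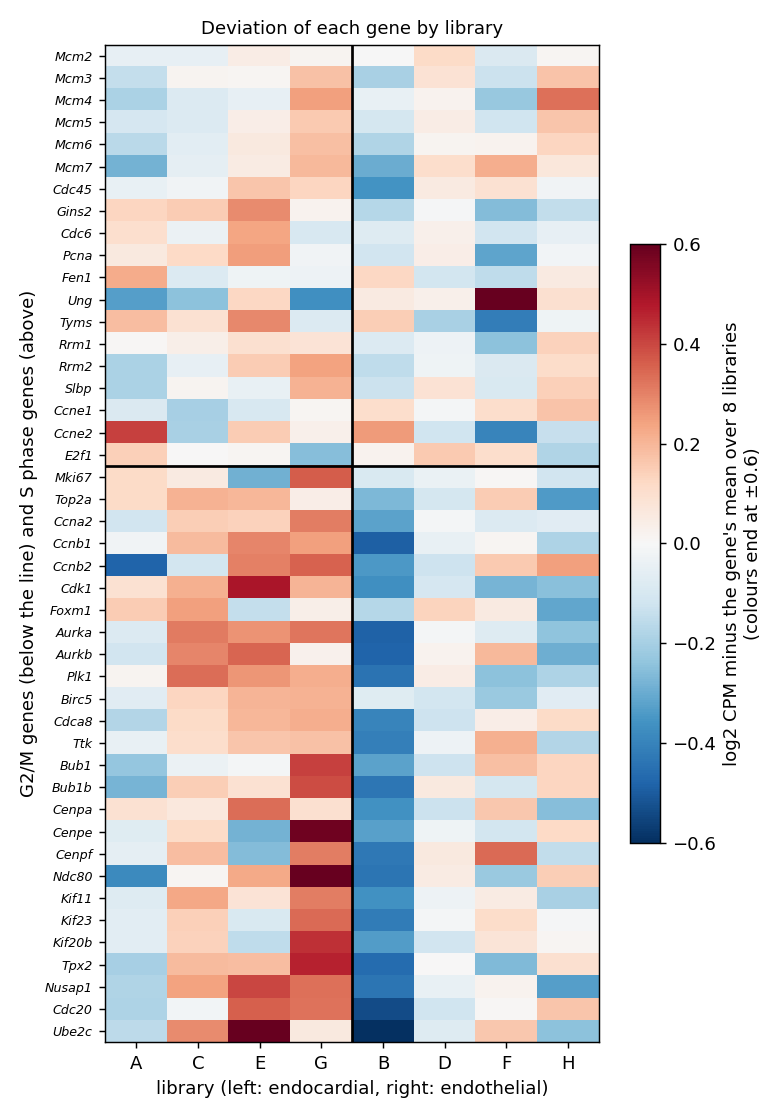
Colour gives each gene's log2 CPM minus its mean over the 8 libraries (columns, endocardial left and endothelial right of the line), with S phase genes above and G2/M genes below the horizontal line. The G2/M block is blue in library B and red in library G for all 26 genes, and the S phase block is paler except for single genes such as Ung in F.

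Among the S phase genes the subunits of the replicative helicase were at nearly equal levels in both groups. Mcm2, a subunit of the ring that unwinds DNA (chromosome 6, 88883474 to 88898780, protein-coding), had 194, 194, 207 and 203 CPM in A, C, E and G and 200.3, 217, 189 and 202 CPM in B, D, F and H. The groups overlapped throughout, at 199 ± 6.69 against 202 ± 11.5 CPM (SD, n = 4), with a log2 fold change of -0.02 (SE 0.09, 95% interval -0.23 to 0.19). The other 5 ring subunits lay between -0.05 (Mcm7) and 0.03 (Mcm3), and over all 6 the intervals reached from -0.37 to 0.30. A difference as large as 0.5 log2 units therefore lay outside the interval of every ring subunit. Per kilobase of the longest protein-coding transcript, the endocardial means of the 6 subunits, which stand in the ring once each, ran from 48.3 ± 5.04 CPM per kb (Mcm6) to 81.3 ± 7.37 (Mcm3), and the endothelial means from 48.0 ± 4.19 (Mcm6) to 82.7 ± 12.1 (Mcm7).

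Cdc45 and the GINS complex join the ring to make the active helicase. Gins2, a GINS subunit (chromosome 8, 120578633 to 120589304, protein-coding), had 83.5, 84.9, 93.1 and 77.5 CPM in A, C, E and G and 67.9, 76.1, 63.7 and 69.0 CPM in B, D, F and H. Every endocardial library was above every endothelial one, which held for this gene alone among the S phase genes and for 4.42% of all tested genes. Its log2 fold change was 0.29 (adjusted p = 0.184 by edgeR, SE 0.10), so Gins2 was not called. Cdc45 had a log2 fold change of 0.11 and Cdc6, which helps load the ring at origins, one of 0.11, both with intervals that include 0.

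Pcna, the clamp that holds polymerases on DNA (chromosome 2, 132249162 to 132253314, protein-coding), had 202, 210.2, 230.2 and 191 CPM in A, C, E and G and 179, 199, 156 and 191 CPM in B, D, F and H. The highest value was in E and the lowest in F, and the groups overlapped at D, G and H. The log2 fold change of Pcna was 0.20 (95% interval -0.05 to 0.45, adjusted p = 0.478 by edgeR, SE 0.11). Fen1, the nuclease that trims Okazaki fragments, had a log2 fold change of 0.04 (95% interval -0.21 to 0.29). Ung, which cuts uracil out of DNA (chromosome 5, 114130386 to 114139323, protein-coding), lay on the other side, with 18.5, 19.6, 25.4 and 18.0 CPM in A, C, E and G and 24.2, 23.8, 36.4 and 24.9 CPM in B, D, F and H. Library F stood far above the rest, and endocardial library E exceeded B, D and H. Its log2 fold change of -0.42 (adjusted p = 0.302 by edgeR, SE 0.18) was -0.27 without F, and Ung was not called.

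The genes of nucleotide supply leaned slightly above 0 and none was called. Tyms, thymidylate synthase, had 77.1, 72.2, 82.8 and 64.0 CPM in A, C, E and G and 75.0, 59.1, 50.7 and 66.5 CPM in B, D, F and H, which overlapped. The log2 fold change of Tyms was 0.24 (SE 0.14, 95% interval -0.07 to 0.54). Rrm1 and Rrm2, the subunits of ribonucleotide reductase, were at 0.10 and 0.08. Slbp, which binds histone mRNA, was at -0.00 (95% interval -0.26 to 0.25).

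The regulators of S phase entry lay on both sides of 0. Ccne1, cyclin E1 (chromosome 7, 38097984 to 38107534, protein-coding), had 26.1, 24.1, 25.9 and 27.9 CPM in A, C, E and G and 29.9, 27.5, 29.8 and 31.2 CPM in B, D, F and H. The only overlap was library G above D, and the log2 fold change was -0.19 (95% interval -0.42 to 0.04, adjusted p = 0.475 by edgeR, SE 0.10). Ccne2, cyclin E2, had 39.6, 26.1, 33.1 and 30.4 CPM in A, C, E and G and 35.7, 27.5, 22.6 and 27.0 CPM in B, D, F and H, with overlap and a log2 fold change of 0.19 (SE 0.17). E2f1, the transcription factor that activates many S phase genes, was at 30.8 ± 3.48 against 31.9 ± 3.18 CPM (SD, n = 4), a log2 fold change of -0.05 (95% interval -0.33 to 0.23). Of all 19 S phase genes, 15 had an interval that lay wholly between -0.5 and 0.5, as did 5398 of all 13817 tested genes. The exceptions among the S phase genes were Gins2, Tyms and Ccne2, whose intervals reached above 0.5, and Ung, whose interval reached below -0.5.

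Among the G2/M genes the kinase that drives mitosis had the largest fold change. Cdk1 (chromosome 10, 69335146 to 69352938, protein-coding) had 155, 169, 205 and 168 CPM in A, C, E and G and 113, 136, 120.1 and 122 CPM in B, D, F and H. All endocardial values exceeded all endothelial ones, with the gap between A and D the smallest, and Cdk1 was the only G2/M gene without overlap, a pattern held by 4.42% of all tested genes. Its mean was 174 ± 21.4 against 123 ± 9.48 CPM (SD, n = 4), 1.42-fold higher with a 95% interval of 1.19 to 1.69. The log2 fold change was 0.50 (adjusted p = 0.049 by edgeR, SE 0.11). This call lay close to the threshold and was lost when any 1 of the 8 libraries was left out, with adjusted p from 0.0732 to 0.137 and log2 fold changes from 0.41 to 0.56. DESeq2 (adjusted p = 0.00193) and limma (adjusted p = 0.0237) called it too. In a fit that blocks A with B, C with D, E with F and G with H, a pairing that no label states, 6 G2/M genes were called higher (Cdk1, Plk1, Aurka, Ccnb1, Nusap1 and Ube2c), where 3.65% of all tested genes were, and 1 S phase gene, Ung, lower, where 5.06% were.

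**Figure D5:**
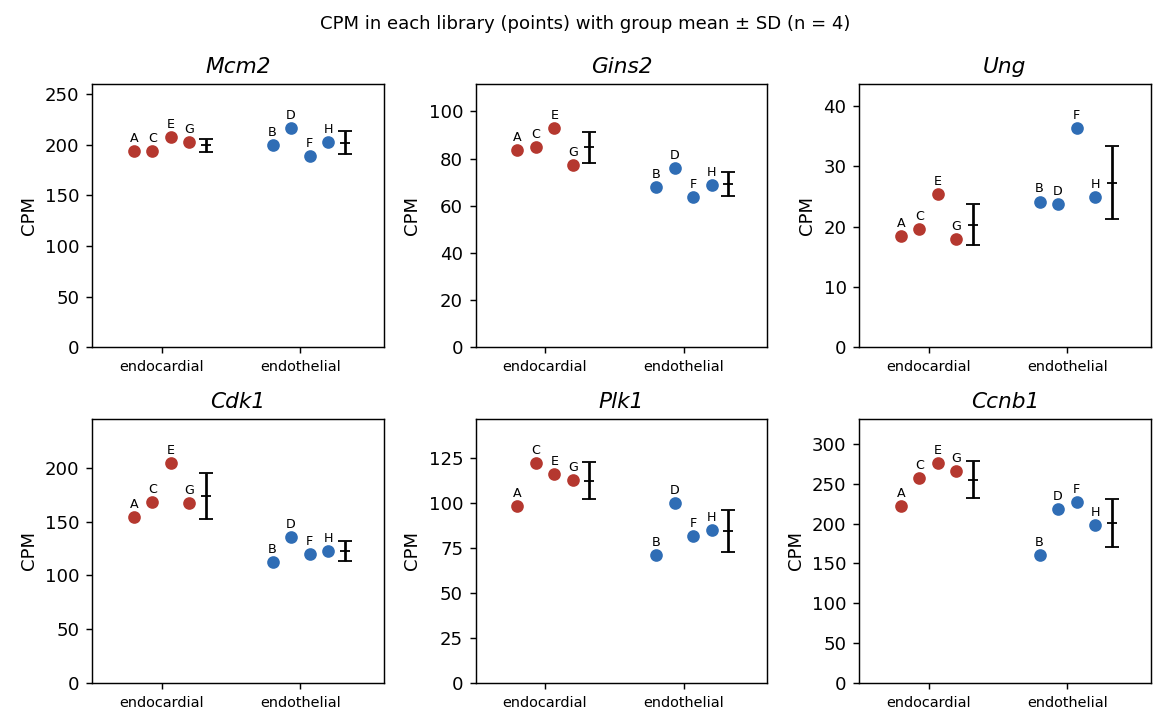
CPM (vertical axes, from 0) of 3 S phase genes (top) and 3 G2/M genes (bottom) in each library (lettered points), with the mean ± SD of each group (black, n = 4). Cdk1 and Gins2 show no overlap between groups, Mcm2 overlaps throughout, and Plk1 and Ccnb1 have library B lowest.

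The cyclin partners of Cdk1 had smaller differences. Ccnb1, cyclin B1 (chromosome 13, 100778650 to 100786570, protein-coding), had 222, 257, 276 and 267 CPM in A, C, E and G and 160.4, 218, 227 and 198 CPM in B, D, F and H. Only A, below F, kept the groups from lying apart, and the log2 fold change was 0.35 (adjusted p = 0.247 by edgeR, SE 0.13). Ccna2, cyclin A2, was at 0.24 (95% interval -0.02 to 0.51). Ccnb2, cyclin B2, was at 66.2 ± 16.9 against 63.8 ± 11.6 CPM (SD, n = 4) with a log2 fold change of 0.05 (95% interval -0.39 to 0.50), the lowest of the 26. Per kilobase, Ccnb1 stood above Ccnb2 in both groups, at 103 ± 9.53 against 43.3 ± 11.1 CPM per kb in the endocardial and 80.7 ± 11.9 against 41.7 ± 7.57 in the endothelial libraries.

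The other mitotic kinases and their partners were above 0 and not called by edgeR. Plk1, polo-like kinase 1 (chromosome 7, 122159439 to 122169873, protein-coding), had 98.0, 122, 116 and 113 CPM in A, C, E and G and 71.1, 99.7, 81.5 and 85.1 CPM in B, D, F and H. Only D exceeded an endocardial library, A, and the log2 fold change was 0.41 (adjusted p = 0.121 by edgeR, SE 0.12), while DESeq2 called Plk1 (adjusted p = 0.0399). Aurka, the Aurora kinase of spindle poles (chromosome 2, 172356190 to 172370535, protein-coding), had 64.4, 84.9, 82.4 and 85.2 CPM in A, C, E and G and 48.8, 67.6, 64.7 and 57.6 CPM in B, D, F and H. Library A lay well below C, E and G and also under D and F, and the log2 fold change was 0.41 (adjusted p = 0.168 by edgeR, SE 0.14). Birc5, survivin, which guides Aurora B in the chromosomal passenger complex, had 72.6, 83.1, 87.8 and 88.1 CPM in A, C, E and G and 72.3, 70.5, 65.1 and 72.6 CPM in B, D, F and H. Its lowest endocardial value, in A, fell among the endothelial ones, and its log2 fold change was 0.24 (adjusted p = 0.29 by edgeR, SE 0.10). Aurkb and Cdca8, of the same complex, and Ttk, a spindle checkpoint kinase, were at 0.27, 0.18 and 0.19, each with an interval that includes 0.

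Mki67, the proliferation antigen Ki-67 that coats mitotic chromosomes (chromosome 7, 135689784 to 135716361, protein-coding), did not separate the groups. It had 521, 501, 394 and 621 CPM in A, C, E and G and 452, 469, 485 and 444 CPM in B, D, F and H. Both the highest value (G) and the lowest (E) were endocardial, and the log2 fold change was 0.14 (95% interval -0.18 to 0.46, adjusted p = 0.743 by edgeR, SE 0.15). Top2a, which untangles sister chromatids (chromosome 11, 98992943 to 99024189, protein-coding), had 558, 595, 591 and 529 CPM in A, C, E and G and 428, 479.7, 573 and 408 CPM in B, D, F and H. Library F, inside the endocardial range, kept the groups from lying apart, and the log2 fold change was 0.27 (SE 0.14, 95% interval -0.03 to 0.57). Foxm1, the transcription factor of the mitotic genes, was at 125 ± 14.1 against 113 ± 15.8 CPM (SD, n = 4), a log2 fold change of 0.14 (95% interval -0.15 to 0.43).

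The genes of spindle assembly, kinetochore and mitotic exit were also above 0 without a call. Nusap1, which bundles spindle microtubules (chromosome 2, 119618298 to 119651244, protein-coding), had 66.9, 89.7, 100.2 and 95.3 CPM in A, C, E and G and 56.0, 73.6, 77.0 and 60.4 CPM in B, D, F and H. Library A lay among the endothelial values and C, E and G above them, at a log2 fold change of 0.40 (adjusted p = 0.247 by edgeR, SE 0.15). Tpx2, which activates Aurora A on the spindle, was at 0.32, and the motor genes Kif11, Kif23 and Kif20b were at 0.27, 0.16 and 0.19. The centromeric histone gene Cenpa was at 0.28, the kinetochore gene Ndc80 at 0.26, and the large kinetochore proteins Cenpe and Cenpf at 0.20 and 0.08. The spindle checkpoint kinases Bub1 and Bub1b were at 0.07 and 0.18. Ube2c and Cdc20, which work with the anaphase-promoting complex, were at 0.41 (95% interval -0.04 to 0.86) and 0.24 (95% interval -0.15 to 0.62). Of the 26 G2/M genes, 17 had an interval reaching 0.5 or more and none had one reaching -0.5. Among all 13817 tested genes 4880 had an interval reaching 0.5 or more and 5347 had one reaching -0.5 or less. The median log2 fold change of the 17 G2/M genes with the CHR letters was 0.24, the same as that of the 5 without them.

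Other genes of the same stages were also measured. Of 53 other replication genes 0 were called by edgeR, 0 had an unadjusted p under 0.05, and the median log2 fold change was 0.02, with 32 above 0. Of 71 other mitosis genes 0 were called by edgeR and 13 had an unadjusted p under 0.05, all above 0, with a median of 0.15 and 63 above 0. The smallest p-values among these were those of Bub3, a checkpoint protein, at 0.39 (adjusted p = 0.0658 by edgeR), Troap, a protein of the mitotic spindle, at 0.55 (adjusted p = 0.0839), Ccnf, cyclin F, at 0.38 and the motor gene Kif18b at 0.38. Of the 17 subunits and regulators of the anaphase-promoting complex 0 were called, and Cdc27, at 0.20, was the only one with an unadjusted p under 0.05. Their median log2 fold change was 0.10, with 14 above 0. Every endocardial library was above every endothelial one for 2 of these 17 genes. The same held for 4 of the 71 other mitosis genes, 0 of the 53 other replication genes and 4.42% of all tested genes. These lists were written with earlier results of these data known and support nothing on their own.

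Genes that act before S phase were not called either. The list of G1 cyclins, kinases and pocket proteins, which also holds the transcription factor Myc, had 22 tested genes. Of these 0 were called by edgeR and 0 had an unadjusted p under 0.05, with a median of 0.04. Ccnd1, cyclin D1, was at 161 ± 30.1 against 143 ± 36.7 CPM (log2 fold change 0.17, 95% interval -0.28 to 0.62). Ccnd2, cyclin D2, was at 227 ± 35.7 against 301 ± 68.3 CPM (SD, n = 4), a log2 fold change of -0.41 (95% interval -0.82 to 0.01), and Myc was at 0.66 (95% interval -0.06 to 1.39). Of 7 inhibitors of cyclin-dependent kinases 0 were called, with Cdkn2d, at 0.50, the only one with an unadjusted p under 0.05. All 7 inhibitors had a log2 fold change above 0, with a median of 0.28, beside 0.24 over the G2/M genes. A lean above 0 was thus not particular to the mitotic genes. Cdkn1a (p21) was at 0.28, Cdkn1b (p27) at 0.07 and Cdkn1c (p57) at 0.02, each with an interval that includes 0.

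Markers of cell identity were measured in the same libraries. Of 29 tested pan-endothelial markers 24 were higher and 0 lower in the endocardial group by edgeR, and the list summed to 2221 to 2616 CPM there against 620 to 1115 CPM in the endothelial libraries, with Clec14a at 0 in G. Of 20 pluripotency markers 2 were called lower, Tdgf1 and Fgf4, and 15 lay below 0 at an unadjusted p under 0.05. They summed to 433 to 636 CPM in the endocardial and 551 to 1635 CPM in the endothelial libraries, highest in F, with Dppa3 at 0 in A, C and G and Gdf3 at 0 in G. These sums overlapped, but the mean log2 CPM over the same 20 markers did not. That mean was 1.56 in A and C, 1.83 in G and 3.21 in E, and ran from 3.27 (B) to 5.66 (F) in the endothelial libraries. Library E thus lay far above the other endocardial libraries and close to B by the mean, while G had the largest endocardial sum. By library the sum was 433, 533, 584 and 636 CPM in A, C, E and G, and 551, 780, 1635 and 894 CPM in B, D, F and H. Libraries F and B, the highest and lowest endothelial ones in that sum, were also the highest and lowest endothelial ones in G2/M level, but H had a larger sum and a lower G2/M level than D, and C, E and G had smaller sums and higher G2/M levels than F. The part of such cells in the cycle gene levels was not tested.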

How the data were processed

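Stranded mRNA libraries were made from column-purified RNA, per the labels' protocols. The authors' table holds estimated counts by gene symbol, deposited as whole numbers. Salmon, DESeq2 and build mm10 are named per the submitters' processing notes, without versions, transcript set or filters. Salmon divides shared reads by a model, so near-identical copies are uncertain.

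Rounded counts were filtered with filterByExpr (minimum count 10, total 15), TMM-scaled and tested in R 4.3.3 with edgeR 4.0.16 (robust quasi-likelihood F-test, two-sided, all 8 libraries, no covariate). Standard errors (SE) are the size of the log2 fold change over the square root of F, and 95% intervals use the test's degrees of freedom. Levels use log2 CPM (prior count 2). DESeq2 1.42.0, limma 3.58.1 (voom with quality weights), other scalings and filters, a block, and leaving out each library were alternatives. The fit was tested on simulated data. Gene positions and transcript lengths are from GENCODE M21 (GRCm38), and promoters from RefSeq (GRCm38.p6).

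The members and lists were chosen with earlier results of these data known. Of 20 S phase genes meant, 19 are reported here, and Mki67 was placed in G2/M. Values in every library are given for the 6 genes per list with the smallest p and for Pcna, Mcm2, Ccne1, Mki67, Top2a, Ccnb1 and Cdk1. Other cycle lists name up to 4 genes with the smallest p, plus Ccnd1, Ccnd2 and 3 inhibitors of the Cdkn1 family, and marker lists up to 3.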

Additional observations from a re-analysis of the deposited data

Results flagged for a closer look

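In 4 groups of 4 libraries, 1 library lay far from the other 3 (its gap to the nearest of them, as a share of the whole range, passed Dixon's 95% limit), among 94 groups examined (90 of single genes and 4 of list levels), where chance gives about 1 in 20. Ung had 36.4 CPM in endothelial library F against 23.8 to 24.9 CPM in B, D and H. Fen1 had 69.7 CPM in endocardial library A against 56.4 to 58.6 CPM in C, E and G. Aurka had 64.4 CPM in endocardial library A against 82.4 to 85.2 CPM in C, E and G. Cenpa had 147 CPM in endocardial library E against 122 to 125 CPM in A, C and G.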

How the results depend on the processing

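The 0 S phase genes called higher and the 0 G2/M genes called lower held in all 19 alternatives. The count of 1 G2/M gene called higher held in 6 of the 19 and was 2 with DESeq2 (Cdk1 and Plk1), 0 with upper-quartile scaling (Cdk1 adjusted p = 0.0682), 0 without the low-count filter (0.0613), 0 at a threshold of 0.01, and 0 in each of the 8 fits that leave out 1 library. For the scaling, filter and single-library fits the cause of the lost call was not tested. Over all tested genes the calls numbered 356 by edgeR, 927 by DESeq2, 975 by limma, 104 at a threshold of 0.01, and 135 to 457 with 1 library left out. Of 15 genes followed through the alternatives, most of them picked for a small p, Mcm2 alone turned its sign. Its log2 fold changes ran from -0.069 (without library F) to 0.019 (without D) when 1 library was left out. Among the other members the fold changes also lay on both sides of 0 across the alternatives for Mcm3 to Mcm7, Fen1, Slbp and E2f1. The same held for the G2/M genes Ccnb2, Bub1 and Cenpf. Counting Mki67 with the S phase list left the counts of calls as they were.

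No label pairs the libraries. As a hint from the data, the deviations of libraries with neighbouring letters from their group means correlated across all tested genes at 0.555 (A and B), 0.324 (C and D), 0.337 (E and F) and 0.611 (G and H), and each endothelial library correlated best with its neighbour. With that replicate block 6 G2/M genes were called higher, 0 lower, and 1 S phase gene lower, out of 1204 calls over all genes. The lowest count of any member in any library was 143, and the part of depth in the width of the intervals was not tested.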

Other observations

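The list of the MuvB complex and the Myb family, which includes regulators that bind mitotic promoters, held 8 genes. Of these edgeR called 0, and 1 had an unadjusted p under 0.05. That gene was Myb, known from blood progenitors, with an endocardial mean of 23.4 ± 9.65 CPM and an endothelial mean of 7.53 ± 3.88 CPM (SD, n = 4). Its log2 fold change was 1.62 (adjusted p = 0.0667 by edgeR, SE 0.39). Mybl2, which codes for B-Myb, the family member that acts with MuvB in dividing cells, had 75.4, 83.6, 81.8 and 84.6 CPM in A, C, E and G and 68.6, 92.7, 207 and 103 CPM in B, D, F and H. Its highest value was in F, the library with most pluripotency transcripts, and its log2 fold change was -0.53 (95% interval -1.19 to 0.12).

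Targets of p53, the factor that halts the cycle after DNA damage, had 0 of 19 called by edgeR, with 1 on either side of 0 having an unadjusted p under 0.05, and a median log2 fold change of -0.06. Gadd45a, a growth arrest gene, was at 12.1 ± 1.94 against 18.5 ± 2.78 CPM (SD, n = 4), at a log2 fold change of -0.61 (adjusted p = 0.102 by edgeR), and Plk2 was at 0.70 (adjusted p = 0.204).

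Markers of other lineages are given for completeness. Of 14 tested neural and epithelial markers 7 were called lower in the endocardial libraries, such as Pax6 at -1.86, Sox3 at -2.28 and Nrcam at -2.77. The list summed to 806 to 1129 CPM there and to 1083 to 1511 CPM in the endothelial libraries. These sums overlapped, but the mean log2 CPM over the same markers did not. It ran from 3.08 to 3.85 in the endocardial and from 4.86 to 5.59 in the endothelial libraries. Of 14 tested cardiomyocyte markers edgeR called 0, while 4 above 0 and 2 under 0 had an unadjusted p under 0.05. They summed to 259 to 492 CPM in endocardial and to 214 to 393 CPM in endothelial libraries, with Nkx2-5 at 0 in A and Myl2 at 0 in H.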
